A study of Mus musculus with 2 samples.

Results

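The miR-30 family was examined by miRNA sequencing of serum EVs (extracellular vesicles, which cells shed into the circulation enclosed by a membrane). The family was taken as 10 mature miRNAs chosen by name, namely the 5 arms from the 5′ side of the hairpin (5p) and 5 arms from the 3′ side (3p), of 1847 miRNAs in all. The groups compared were 7-week-old male iFIRKO and control mice. The iFIRKO mice had the genotype Adipoq-CreERT2; Insr flox/flox, in which a tamoxifen-inducible Cre driven by the adiponectin promoter removes the insulin receptor from adipocytes. The control mice are labelled WT, whereas the methods of the study describe them as Insr flox/flox mice without Cre. Tamoxifen was given to both groups at 100 mg/kg daily for 5 days, with analysis at Day 3 after the last dose. Each group was 1 library made from the pooled serum EVs of several mice, so there was no biological replicate and no test between genotypes.

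An miRNA hairpin is cut into a duplex of a 5p and a 3p strand, of which usually one, the guide, is kept in an Argonaute protein while the other, the passenger, is mostly degraded. The guide finds its target mRNAs mainly through its seed, bases 2 to 8 from the 5′ end. In the miR-30 family the 5p arms are the usual guides and share a seed, and they are known in fat tissue for promoting adipocyte differentiation, with the transcription factor Runx2 among their targets.

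The sequences are shown because the members differ by few bases and because the 3p arms fall into groups by seed. RefSeq mature sequences on GRCm38.p6 matched 6 of the 10 members, and mmu-miR-30b-5p, mmu-miR-30b-3p, mmu-miR-30d-5p and mmu-miR-30d-3p are given by name. The seed is in capitals.
mmu-miR-30a-5p: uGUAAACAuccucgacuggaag
mmu-miR-30c-5p: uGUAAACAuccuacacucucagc
mmu-miR-30e-5p: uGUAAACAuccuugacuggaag
mmu-miR-30a-3p: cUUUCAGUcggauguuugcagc
mmu-miR-30e-3p: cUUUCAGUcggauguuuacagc
mmu-miR-30c-2-3p: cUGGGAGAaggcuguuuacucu
Counting from 1 at the 5′ end, mmu-miR-30a-5p and mmu-miR-30e-5p differed only by C13U, and mmu-miR-30a-3p and mmu-miR-30e-3p only by G18A. The first 12 bases of mmu-miR-30c-5p were those of mmu-miR-30a-5p. The 3p arms of Mir30a and Mir30e shared the seed UUUCAGU, and that of Mir30c-2 had the seed UGGGAGA. Arms that differ by 1 base are uncertain when taken singly, since the rule that divided counts between them is not given in the sources used here.

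The hairpins lie in pairs. Mir30a (chr1:23272269-23272339, plus strand, GRCm38) overlapped no other annotated gene, and Mir30c-2 (chr1:23291701-23291784, plus strand) lay 19.4 kb downstream within an exon of the long non-coding RNA gene Gm27028. Mir30e (chr4:120772606-120772697) and Mir30c-1 (chr4:120769534-120769622) were 3.0 kb apart on the minus strand, each in an intron of Nfyc, which encodes a subunit of the transcription factor NF-Y and lies on the same strand. Mir30b and Mir30d were 3.7 kb apart on the minus strand of chromosome 15, and each overlapped exons of non-coding transcripts. The miR-30c pair is shown whole with both arms in capitals, because the same 5p arm comes from both hairpins and only the 3p arms tell them apart.
Mir30c-1: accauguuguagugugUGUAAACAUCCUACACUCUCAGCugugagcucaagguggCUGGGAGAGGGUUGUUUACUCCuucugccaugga
Mir30c-2: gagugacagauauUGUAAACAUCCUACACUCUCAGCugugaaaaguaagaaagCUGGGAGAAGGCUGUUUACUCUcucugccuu
From mmu-miR-30c-2-3p to mmu-miR-30c-1-3p the bases differed by A9G, C12U and U22C.

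The deposited value of each miRNA was a whole count divided by 1 constant per library. That constant was used as the depth, and it was 3817902 for the control library and 2233498 for the iFIRKO library, as the labels name them. Levels are recovered counts or CPM (counts per 1000000 of depth). Counts under 10 were deposited as a single lowest value, here called the floor, and all 10 members were above it in both libraries. Ratios are of CPM in the library labelled iFIRKO over the library labelled control, and their 95% intervals (Clopper-Pearson) cover counting error only, not the spread between animals. These data hold no readout of the Insr deletion, so directions rest on the labels, and "iFIRKO library" and "control library" stand for the libraries so labelled. These labels are in doubt. The study reports that most EV-miRNAs were lower in iFIRKO mice. In the files as labelled and on the deposited scaling, 1225 miRNAs were at least 1.5-fold higher in the iFIRKO library and 56 were at least 1.5-fold lower. The study took miR-451a, miR-486a-3p, miR-16-2-3p and miR-144-3p to quantitative PCR as miRNAs of higher level in iFIRKO mice. Its quantitative PCR on individual serum samples also found these miRNAs higher in iFIRKO mice. In the files as labelled all 4 were lower in the iFIRKO library, with ratios of 0.409, 0.549, 0.557 and 0.506 in this order. Whether the labels of the files are exchanged was not settled by these data. With the labels exchanged, each ratio turns into its inverse and the counts of higher and lower miRNAs change places. The family sum would then have a ratio of 1.11 (1.1 to 1.12) in place of 0.898, miR-30e-5p, miR-30c-5p and miR-30b-5p would have 1.33, 1.35 and 1.39, and miR-30c-2-3p would have 0.507 (0.379 to 0.678). The comparisons within a library would keep their values, with the library names exchanged.

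Of the miRNAs known from other sources of serum EVs, all 6 listed as erythroid were lower in the iFIRKO library. Together they made up 30.5% of the control library and 22.2% of the iFIRKO library, most of it miR-16-5p (260382 and 190830 CPM). All 4 liver miRNAs were higher, from 12.1% to 20.2%. The 3 miRNAs listed for platelets, miR-126a-3p, miR-223-3p and miR-24-3p (together 5.89% and 4.50%), were all lower. All 4 leukocyte miRNAs (2.64% and 2.44%) were lower, and of the 3 muscle miRNAs (1.07% and 0.983%) 2 were lower and 1 was higher. Beside these lists, 220 of all 1847 miRNAs were lower in the iFIRKO library, and so were 70 of the 118 miRNAs averaging 1000 counts or more. Whether any of the listed miRNAs came only from the source it is listed for was not tested. The part of these sources in the values below was not tested, and in pooled serum fewer releasing cells and less RNA per cell cannot be told apart.

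The family was an abundant part of serum EV-miRNA and on the deposited scaling was smaller in the library labelled iFIRKO. The 10 arms summed to 141620 counts (37094 CPM) in the control library and 74402 counts (33312 CPM) in the iFIRKO library. They made up 3.71% of the control library (95% Wilson interval 3.69 to 3.73) and 3.33% of the iFIRKO library (3.31 to 3.35), a ratio of 0.898 (95% interval 0.890 to 0.906). The size of this difference rested on the scaling, with a ratio of 0.771 when scaled to miR-148a-3p, 0.747 with the median of ratios and 0.497 with TMM (trimmed mean of M values). The 5p arms held nearly all of it, 97.35% of the family in the control library and 97.36% in the iFIRKO library. The median log2 ratio of the 10 members was -0.16, beside 0.88 for all 1847 miRNAs and -0.07 for the 118 miRNAs averaging 1000 counts or more. As deposited, no member was at least 1.5-fold lower (9 were with TMM) and 1 was at least 1.5-fold higher, whereas 3.03% of all miRNAs were lower and 66.3% were higher by this threshold of the study. The study itself reports the opposite direction, with most EV-miRNAs decreased in iFIRKO mice. Of the members, 6 had a mean count of at least 1000. In this class 2.54% were at least 1.5-fold higher, and 11 of 118 were at least 1.5-fold lower. When Fisher's exact test was run on recovered counts for the 1736 miRNAs that neither library had at the floor (Benjamini-Hochberg adjusted p under 0.05), 5 members were called lower and 1 higher. Such a test concerns these 2 libraries, not the genotypes, and it called 4.84% of the miRNAs lower and 60.5% higher. The 5 members called lower all averaged 1000 counts or more, a class in which 70 of 118 miRNAs had a ratio below 1. The share called within this class was not counted.

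**Figure D1:**
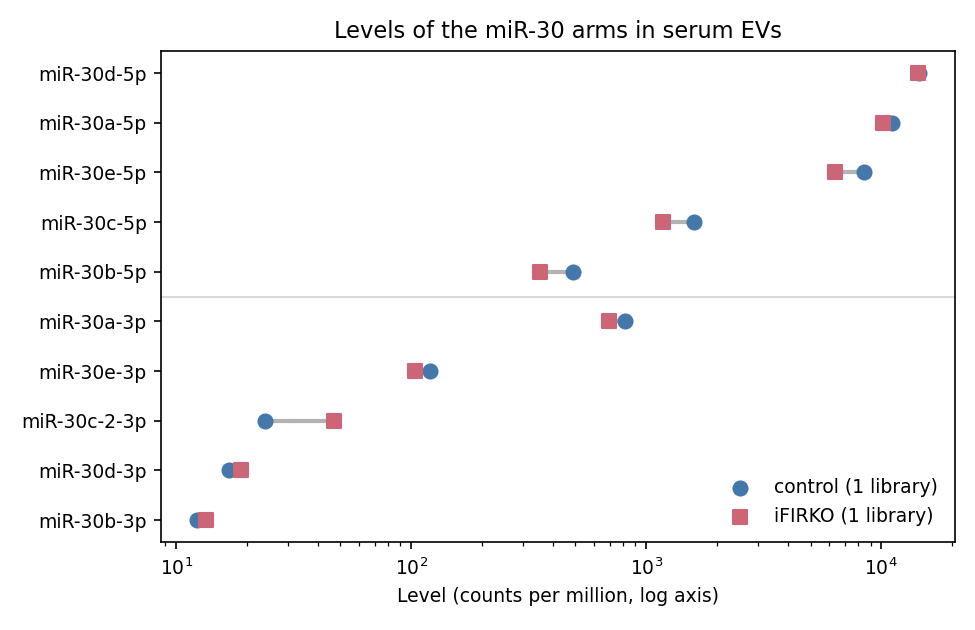
Level of each miR-30 arm in CPM on a log axis, with a circle for the control library and a square for the iFIRKO library (1 library each). The 5p arms lie above 352 CPM in both libraries, and the arms keep the same order of levels when all 10 are ranked.

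The levels ran from 12.3 to 14427 CPM in the control library, and the order of the 10 arms was the same in both libraries. From the highest to the lowest it was miR-30d-5p, miR-30a-5p, miR-30e-5p, miR-30c-5p, miR-30a-3p, miR-30b-5p, miR-30e-3p, miR-30c-2-3p, miR-30d-3p and miR-30b-3p. Neighbours in this order differed beyond counting error except the last pair. There miR-30d-3p exceeded miR-30b-3p 1.36-fold in the control library (95% interval 0.920 to 2.03) and 1.40-fold in the iFIRKO library (0.856 to 2.32). The step from miR-30c-2-3p to miR-30d-3p was also narrow in the control library, 1.42-fold (1.02 to 1.99). The arms with a sequence here are 22 or 23 bases long, so no correction for length was made. An efficiency of ligation that differs between sequences can also set such levels, and it was not tested.

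Among the guides, miR-30d-5p and miR-30a-5p were nearly level between the libraries and the other three were 24.6% to 27.9% lower in the iFIRKO library. mmu-miR-30d-5p, the most abundant arm, had 55080 counts in the control library and 31993 in the iFIRKO library (14427 and 14324 CPM), with a ratio of 0.993. Its 95% interval (0.979 to 1.01) included 1. mmu-miR-30a-5p had 42508 and 22769 counts (11134 and 10194 CPM), with a ratio of 0.916 (0.901 to 0.930).

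Lower ratios were found for the remaining guides. mmu-miR-30e-5p had 32295 counts in the control library and 14249 in the iFIRKO library (8459 and 6380 CPM), with a ratio of 0.754 (95% interval 0.739 to 0.769). mmu-miR-30c-5p, which both miR-30c hairpins give rise to, had 6111 and 2642 counts (1601 and 1183 CPM), with a ratio of 0.739 (0.706 to 0.774). mmu-miR-30b-5p, the least abundant guide, had 1867 and 787 counts (489 and 352 CPM), with a ratio of 0.721 (0.662 to 0.784). The intervals of these 3 guides overlapped each other and excluded 1.

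The guides were then placed among miRNAs of like abundance, where miR-30e-5p, miR-30c-5p and miR-30b-5p lay below the lower quartile and miR-30a-5p and miR-30d-5p between the quartiles. Of the 118 miRNAs averaging 1000 counts or more, 19 (16.1%) had a lower ratio than miR-30b-5p, 25 (21.2%) a lower ratio than miR-30c-5p and 29 (24.6%) a lower ratio than miR-30e-5p. For miR-30a-5p and miR-30d-5p these shares were 42.4% and 57.6%. The quartiles of this class were -0.40 and 0.15 on the log2 scale, and the 64 5p arms among them had a median of -0.07.

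**Figure D2:**
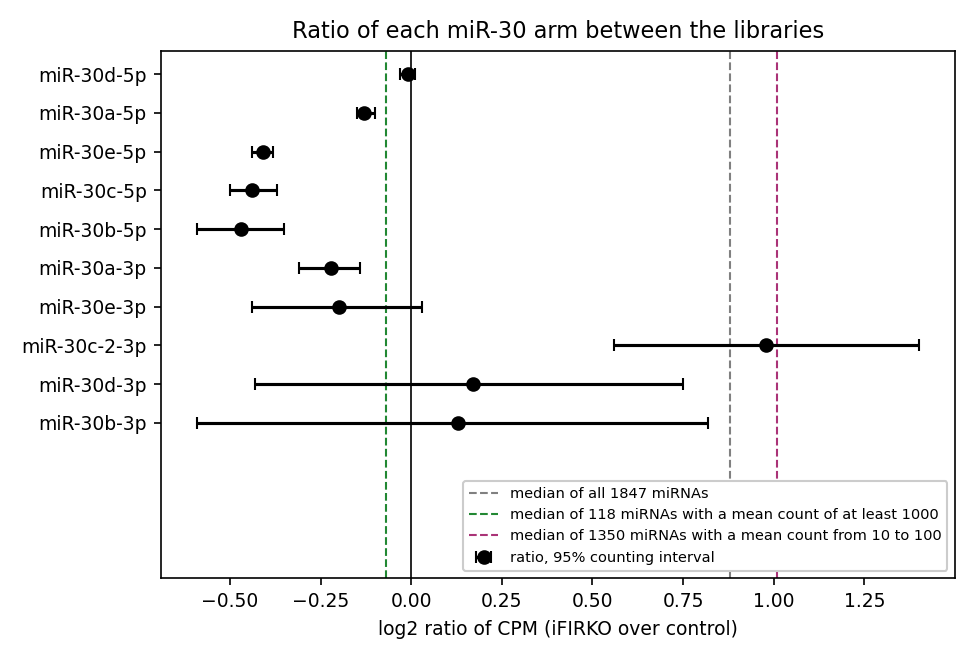
Log2 ratio of CPM (iFIRKO over control) of each miR-30 arm, with bars for the 95% counting interval and dashed lines for the median of all 1847 miRNAs (0.88), of those with a mean count of at least 1000 (-0.07) and of those with a mean count from 10 to 100 (1.01). The bars of miR-30a-5p, miR-30a-3p, miR-30b-5p, miR-30c-5p and miR-30e-5p lie left of -0.07, and that of miR-30c-2-3p is the only one wholly to the right of 0.

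Because a ratio between 2 arms of the same library does not depend on how libraries are scaled to each other, the make-up of the family was examined next. mmu-miR-30d-5p made up 38.89% of the family counts in the control library (95% Wilson interval 38.64 to 39.15) and 43.0% in the iFIRKO library (42.64 to 43.36). mmu-miR-30e-5p made up 22.80% (22.59 to 23.02) and 19.15% (18.87 to 19.44). The share of mmu-miR-30a-5p was 30.02% (29.78 to 30.25) and 30.60% (30.27 to 30.93). The iFIRKO library thus held relatively more miR-30d-5p and less miR-30e-5p, with miR-30a-5p at nearly the same share. The smaller shares of mmu-miR-30c-5p (4.32% and 3.55%) and mmu-miR-30b-5p (1.32% and 1.06%) were lower in the iFIRKO library, with intervals that did not overlap between libraries.

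**Figure D3:**
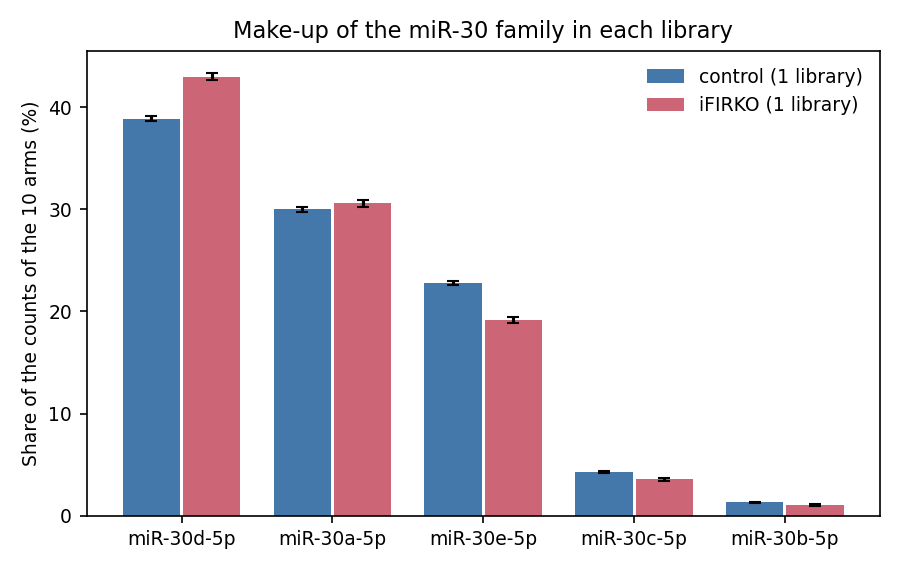
Share of the counts of the 10 miR-30 arms held by each 5p arm, in percent, with 1 bar for the control library and 1 for the iFIRKO library and error bars for the 95% Wilson interval. The share of miR-30d-5p is higher in the iFIRKO library (43.0% against 38.89%) and that of miR-30e-5p lower (19.15% against 22.80%).

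All 10 pairs of guides were compared in this way, each with the guide of the higher ratio as the numerator. Of the pairs so ordered from the data, 7 had an interval (95%, exact conditional) above 1. The count of miR-30d-5p was 1.71 times that of miR-30e-5p in the control library and 2.25 times in the iFIRKO library, a 1.32-fold difference (1.29 to 1.35). The count of miR-30a-5p relative to miR-30e-5p, which differs from it by C13U, was 1.32 and 1.60, a 1.21-fold difference (1.18 to 1.25). Relative to miR-30a-5p, miR-30d-5p was 1.08-fold higher in the iFIRKO library (1.06 to 1.11).

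No shift beyond counting error was detected for the 3 pairs formed by miR-30e-5p, miR-30c-5p and miR-30b-5p. The difference was 1.02-fold for miR-30e-5p over miR-30c-5p (0.971 to 1.07), 1.05-fold for miR-30e-5p over miR-30b-5p (0.960 to 1.14) and 1.03-fold for miR-30c-5p over miR-30b-5p (0.932 to 1.13). The guides thus fell into miR-30d-5p and miR-30a-5p on one side and miR-30e-5p, miR-30c-5p and miR-30b-5p on the other. The first side was not uniform, since miR-30d-5p was 1.08-fold higher relative to miR-30a-5p (1.06 to 1.11). These sides did not follow the hairpin pairs, since the neighbours Mir30b and Mir30d were on different sides. The count of miR-30d-5p was 29.5 times that of miR-30b-5p in the control library and 40.7 times in the iFIRKO library, a 1.38-fold difference (1.27 to 1.5). Summed over miR-30a-5p, miR-30d-5p and miR-30e-5p, the 5p counts had a ratio of 0.908 (0.900 to 0.917). Any exchange of counts among these 3 would leave that sum as it is. The sum of miR-30b-5p and miR-30c-5p had a ratio of 0.735 (0.706 to 0.765).

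The 3p arms, the usual passengers, together had 3759 counts in the control library and 1962 in the iFIRKO library (985 and 878 CPM), with a ratio of 0.892 (95% interval 0.844 to 0.943). mmu-miR-30a-3p held most of these, with 3099 and 1552 counts (812 and 695 CPM) and a ratio of 0.856 (0.805 to 0.910). Without it the other 4 of the 3p arms had 660 and 410 counts and a ratio of 1.06 (0.936 to 1.2). That ratio includes miR-30c-2-3p, at 1.97, so it does not show that the lower level was limited to miR-30a-3p. mmu-miR-30e-3p, which shares its seed, had 458 and 233 counts (120 and 104 CPM), with a ratio of 0.870 (0.740 to 1.02).

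The remaining 3p arms rested on few counts. mmu-miR-30d-3p had 64 counts in the control library and 42 in the iFIRKO library (16.8 and 18.8 CPM), with a ratio of 1.12 (95% interval 0.741 to 1.68). mmu-miR-30b-3p had 47 and 30 counts (12.3 and 13.4 CPM), with a ratio of 1.09 (0.666 to 1.76). For both arms a difference between the libraries was not detectable at this depth. mmu-miR-30c-2-3p had 91 and 105 counts (23.8 and 47.0 CPM), with a ratio of 1.97 (1.48 to 2.64), and it was the member past 1.5-fold.

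Low counts were generally higher in the library labelled iFIRKO, and the 3p arms were read against this. Among the 1350 miRNAs averaging 10 to 100 counts, 76.7% were at least 1.5-fold higher and the median log2 ratio was 1.01. In this class 48.4% of the miRNAs had a lower ratio than miR-30c-2-3p, whose log2 ratio of 0.98 was thus near the median. Only 6.52% had a lower ratio than miR-30d-3p and 5.85% a lower ratio than miR-30b-3p, although the counting intervals of both reached 0.75 and 0.82 on the log2 scale. Of the 302 miRNAs averaging 100 to 1000 counts, 47.0% were at least 1.5-fold higher, and 10.9% had a lower ratio than miR-30e-3p.

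**Figure D4:**
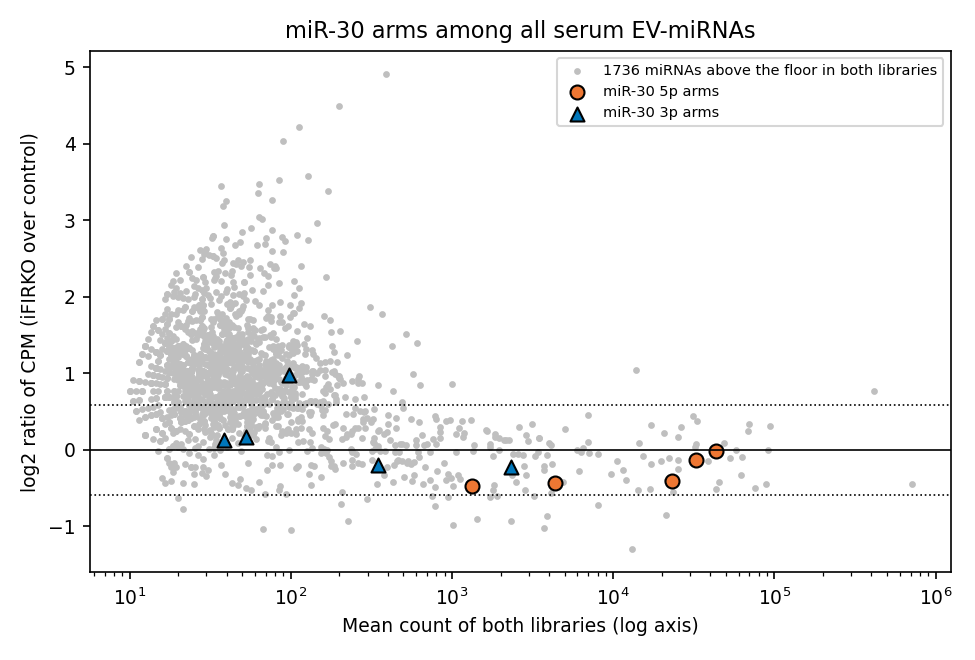
Log2 ratio of CPM (iFIRKO over control) against the mean count of both libraries on a log axis, for 1736 miRNAs at the floor in neither library (grey), the miR-30 5p arms (circles) and the miR-30 3p arms (triangles); dotted lines mark 1.5-fold. The 5p arms lie among other abundant miRNAs, miR-30c-2-3p in the middle of the low class, and miR-30b-3p and miR-30d-3p near 0 at its lower side.

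The arms of each hairpin were then compared within each library. Mir30a had 7.29 counts of its 3p arm per 100 counts of its 5p arm in the control library and 6.82 in the iFIRKO library, a ratio between libraries of 0.935 (95% exact conditional interval 0.877 to 0.996). Mir30e had 1.42 and 1.64 per 100 (1.15-fold, 0.979 to 1.35), and Mir30d, the most one-sided of the family, had 0.116 and 0.131 per 100 (1.13-fold, 0.747 to 1.69). Mir30b had 2.52 and 3.81 per 100 (1.51-fold, 0.917 to 2.46). Apart from that of Mir30a, whose upper bound is close to 1, these intervals included 1.

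The passenger share of miR-30c differed more. mmu-miR-30c-2-3p had 1.49 counts per 100 counts of mmu-miR-30c-5p in the control library and 3.97 in the iFIRKO library, a 2.67-fold difference (95% interval 1.99 to 3.59). The 3p arm of the other hairpin, mmu-miR-30c-1-3p, which is not among the 10 members, had 49 and 50 counts (12.8 and 22.4 CPM), with a ratio of 1.74 (1.15 to 2.64). Both 3p arms together, which share the seed UGGGAGA, had 2.29 and 5.87 counts per 100 counts of miR-30c-5p, a 2.56-fold difference (2.01 to 3.26). Thus, as deposited, the guide of miR-30c was lower and both of its 3p arms were higher in the iFIRKO library. TMM scaling divides every ratio by 1.81, which exceeds the 1.74 of miR-30c-1-3p and would turn it to lower. That factor also lies within the interval of miR-30c-2-3p (1.48 to 2.64). The shift of the 3p arms against the guide does not depend on the scaling, and its direction was common. There were 84 hairpins whose major arm had a mean count of at least 1000. Of these, 42.9% had a ratio of minor to major arm at least 1.5-fold higher in the iFIRKO library. The median change of these hairpins was 0.31 on the log2 scale, beside -0.10 for Mir30a, 0.18 for Mir30d, 0.21 for Mir30e and 0.60 for Mir30b. Whether the low counts of the 3p arms came from the hairpins named or from other small RNA was not tested.

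Further miRNAs related by name or seed were examined. mmu-miR-30f is annotated on the strand opposite to Mir30e (chr4:120772621-120772642, plus strand), where it overlaps 19 bases of miR-30e-3p, and its first 10 bases equal those of miR-30e-5p from base 2 on. Its sequence is shown beside that of mmu-miR-384-5p, a miRNA known from neurons that carries the seed of the miR-30 guides, with bases 2 to 8 in capitals.
mmu-miR-30f: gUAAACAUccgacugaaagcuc
mmu-miR-384-5p: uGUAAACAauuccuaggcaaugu
mmu-miR-30f had 188 counts in the control library and 80 in the iFIRKO library (49.2 and 35.8 CPM), with a ratio of 0.727 (95% interval 0.553 to 0.95), and 2.98% of the 302 miRNAs of its abundance class had a lower ratio. mmu-miR-384-5p had 108 and 104 counts (28.3 and 46.6 CPM), with a ratio of 1.65 (1.25 to 2.18). Both had a mean count from 100 to 1000, a class with a median log2 ratio of 0.53.

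The miRNA nearest to each guide in log2 CPM over the 2 libraries was named as a description. It was mmu-miR-21a-5p for miR-30d-5p (distance 0.261), mmu-miR-199a-3p/mmu-miR-199b-3p for miR-30a-5p (0.119), mmu-miR-126a-5p for miR-30e-5p (0.105), mmu-miR-140-5p for miR-30c-5p (0.182) and mmu-let-7b-3p for miR-30b-5p (0.134). Their ratios were 1.07, 1.03, 0.684, 0.883 and 0.736 in this order.

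Other miRNAs known from adipocyte differentiation were set beside the miR-30 guides. Of a list of 20, 10 were higher and 10 were lower in the iFIRKO library, and the median log2 ratio was -0.04. Over all 1847 miRNAs, 1627 were higher and 220 lower, with a median of 0.88. Of the 118 averaging 1000 counts or more, 48 were higher and 70 lower, with a median of -0.07. The list was not divided into miRNAs that promote and miRNAs that oppose differentiation. The smallest ratios belonged to mmu-miR-143-3p, which promotes adipocyte differentiation, with 29639 and 13214 counts (0.762, 95% interval 0.747 to 0.778), and to mmu-miR-26b-5p, with 16671 and 7455 counts (0.764, 0.744 to 0.786). These were close to those of miR-30e-5p, miR-30c-5p and miR-30b-5p. The largest ratios rested on few counts. mmu-miR-448-3p was at the floor in the control library and had 11 counts in the iFIRKO library. Set against a floor of 10 counts it was at least 1.88-fold higher, a bound that leaves out counting error. It was the 1 list member past 1.5-fold higher, beside 66.3% of all miRNAs. mmu-miR-193b-3p, known from brown adipocytes, had 27 and 23 counts (1.46, 0.798 to 2.64).

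Of the directions, those of miR-30b-3p and miR-30d-3p depended on the scaling, and the size of every ratio did. The study used miR-148a-3p as a reference for its quantitative PCR, beside a spike-in control. Here miR-148a-3p had 24524 and 16705 counts (1.16, 95% interval 1.14 to 1.19). Scaled to it, every ratio was divided by 1.16, and the summed ratio of the family was 0.771. Scaling to the median of ratios, taken among miRNAs averaging 100 counts or more, gave 0.747 and TMM scaling 0.497. Under each of these 3 scalings 9 arms were below 1, with miR-30b-3p and miR-30d-3p turning from higher to lower, and miR-30c-2-3p was above 1, at 1.09 with TMM scaling. At 1.5-fold, 3 arms were lower with miR-148a-3p or the median of ratios and 9 with TMM scaling. Over all miRNAs the shares lower by 1.5-fold were 5.52%, 6.12% and 19.5% under these scalings. All guides and miR-30a-3p averaged 1000 counts or more, a class of 118 with log2 quartiles of -0.40 and 0.15 as deposited. TMM scaling took 0.85 from every log2 ratio, which put even the upper quartile of this class past 1.5-fold lower. The median of ratios (0.27) and miR-148a-3p (0.22) put its lower quartile there. The share of this class past 1.5-fold was not counted under these scalings, so the arms were not compared at like abundance. TMM scaling also changed the split over all miRNAs from 1225 higher and 56 lower to 388 higher and 360 lower. The order of the arms by ratio and all comparisons within a library are the same under any such scaling.

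**Figure D5:**
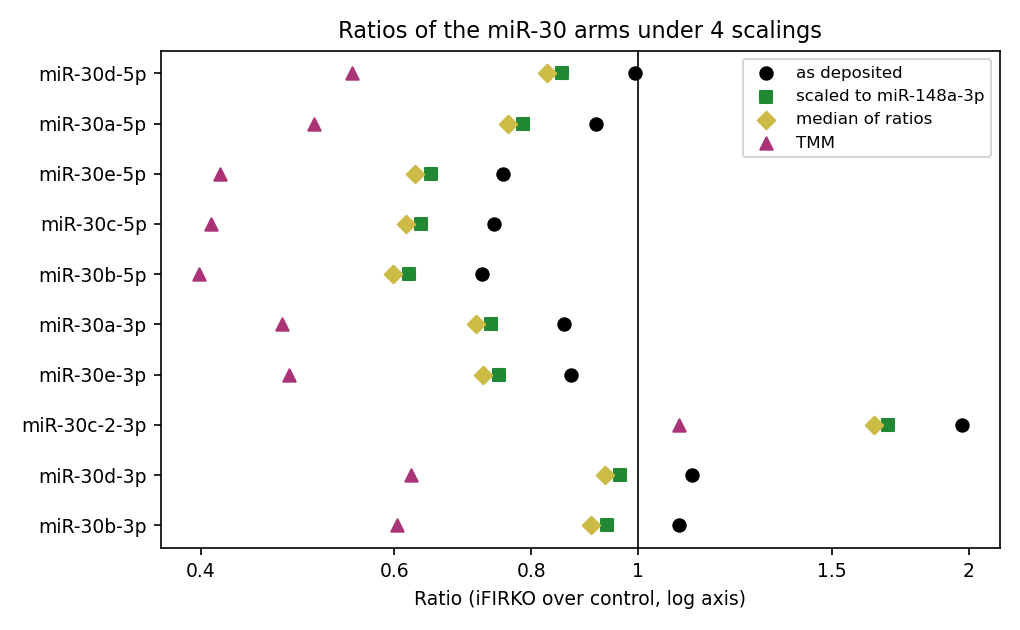
Ratio (iFIRKO over control, log axis) of each miR-30 arm as deposited and under 3 other scalings, 1 point for each. As deposited, 7 of the 10 arms lie below 1, and under each other scaling 9 do, with miR-30c-2-3p as the arm above 1.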

How the data were processed

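QIAseq miRNA libraries of serum EV RNA were sequenced on a NextSeq500 and analysed by the authors on the GeneGlobe Data Analysis Center. The submitters' processing notes name mm10. Aligner, miRNA release and use of molecular identifiers are not given in the sources used here. The deposited unit is a normalized signal per miRNA. Multiplied by 1 constant per library, 100% of these values were whole within the rounding of their printed digits, so counts were recovered. The listed miRNAs held 99.3% (control) and 99.1% (iFIRKO) of the depth, and 76 and 35 miRNAs were at the floor.

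CPM, ratios, exact intervals and Fisher's tests were computed with Python 3.11.15 and scipy 1.17.1, and TMM factors with edgeR 4.0.16. The Fisher test and the intervals were tested on simulated data. Hairpin positions are from GENCODE on GRCm38 and RefSeq. All 10 members were named. Beside them, the rule named other miR-30 rows, rows with the guides' seed, the nearest miRNA to each guide, and the 2 smallest and 2 largest ratios of the adipocyte list. The 4 miRNAs set against the labels were taken from the study's PCR follow-up, and their values and the ratios under exchanged labels were added after the data were seen. The members and lists were chosen with earlier results of these data known. Alternatives were scalings, filters, a pseudocount of 1 CPM, a 2-fold threshold and the Fisher test.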

Additional observations from a re-analysis of the deposited data

How the results depend on the processing

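No paired analysis was possible because there was only 1 library for each group, and none could be left out. The summed ratio of the family and that of its 5p arms were both 0.747 with the median of ratios, 0.497 with TMM and 0.771 with miR-148a-3p, and that of the 3p arms was 0.742, 0.494 and 0.766. In settings chosen after seeing the data, leaving miR-16-5p and miR-122-5p out of the depth gave 0.909 for both the family and the 5p arms, and leaving out miR-30a-3p gave 1.06 for the 3p arms. The 5p sum over miR-30a, miR-30d and miR-30e alone was 0.908. The median log2 ratio of the members was -0.43, -1.02 and -0.38 under the median of ratios, TMM and miR-148a-3p, and that of the adipocyte list -0.30, -0.89 and -0.26. With mean counts filtered at 10 and 100 the adipocyte list had -0.14 and -0.15. The 1 higher member was lost (0) with TMM, with the filter at 100 counts and at 2-fold. Lower members numbered 3 with miR-148a-3p or the median of ratios, 9 with TMM and 5 by Fisher's test. Of all miRNAs, 388 were higher with TMM, 145 with the filter at 100 counts and 794 at 2-fold. Lower were 113 with the median of ratios, 360 with TMM, 102 with miR-148a-3p, 24 and 18 at the filters of 10 and 100, and 21 above the floor in both libraries (added after seeing the data). Filters test fewer miRNAs, and a scaling divides every ratio by 1 factor. Equal totals and the pseudocount changed no count of members. The depth limits miR-30b-3p, miR-30d-3p and miR-30c-2-3p most.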
